A study of Mus musculus and Rattus norvegicus with 21 samples.

Results

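The forkhead genes other than Foxe1 were examined in chromatin from mouse thyroid glands. They were chosen by symbol, as every protein-coding gene of the mouse RefSeq annotation named Fox with 1 letter from a to s and a number, leaving out Foxe1. This gave 43 of 21000 protein-coding genes with a curated transcript. In the study, ChIP-seq, the sequencing of DNA pulled down with an antibody from cross-linked chromatin, was used to map H3K4me3 and H3K27me3 in thyroids lacking the transcription factor (TF) GLIS3 and in wild-type thyroids, on 2 diets, and to map the thyroid TFs NKX2.1 and PAX8 in wild-type thyroids. Each library was deposited as a list of peaks.

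The histone groups were Glis3KO-LID, Glis3KO-ND, WT-LID and WT-ND, all C57BL/6 mice labelled as 1 month old. Glis3KO animals carry the allele labelled B6.Glis3<tm2(mCherry)Amj> (the study's methods write tm3), and WT animals are wild type. LID is the Low Iodine Diet, which raises thyroid-stimulating hormone, and ND is the NIH-31 normal diet. NKX2.1 and PAX8 were labelled as WT-LID, whereas the study's methods describe these animals as Glis3-EGFP mice that were older and longer on the LID than the histone mice. Factor and histone peaks may therefore come from different mice. Every combination of antibody, genotype and diet had 1 library, so none of the differences below has a replicate check and no test was made. The glands were used whole, and the sources used here do not say how many animals were pooled.

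Forkhead proteins bind DNA through a winged helix domain that the family shares. Some, such as FOXO and FOXK proteins, act in most cell types, and others are restricted to 1 lineage and direct its formation in the embryo. FOXE1 is the member known for thyroid development. H3K4me3 is placed at start sites of active genes or of genes kept ready for activity, and H3K27me3 is placed by Polycomb repressive complex 2, which holds developmental regulators silent. Promoters with both marks are called bivalent, and they are known from regulators of lineages other than the cell's own.

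Here a gene was called marked when a peak lay within 1 kb of any of its curated start sites, a window of 2001 bp. It was called open with H3K4me3 alone, bivalent with both marks, Polycomb only with H3K27me3 alone and unmarked with neither. These words name peak calls. In whole tissue both marks can lie on different cells or alleles, and fewer cells with a mark cannot be told apart from less of it per cell. The lists hold no score and the number of reads is unknown.

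The peak lists differed in length. H3K4me3 lists held 15692 to 17044 peaks. H3K27me3 lists held 18040 peaks in Glis3KO-LID and 2631 to 4116 in the other 3 libraries, covering 55.11 Mb in Glis3KO-LID, 13.26 Mb in Glis3KO-ND, 7.502 Mb in WT-LID and 7.472 Mb in WT-ND. Of 13 thyroid markers, 13 had H3K4me3 in Glis3KO-LID and 13 in Glis3KO-ND, against 11 in WT-LID and 12 in WT-ND. Tg, which encodes thyroglobulin, carried neither mark in WT-LID or WT-ND. None of 6 immune markers (Ptprc, Cd3e, Cd79a, Cd68, Csf1r and Itgam) had H3K4me3 in any library, while 3 to 6 of 6 endothelial markers and 1 to 4 of 6 fibroblast markers did.

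The promoters of these genes ranged from dense in CpG to nearly free of it, and their class followed that range in part. The 250 bases before the most upstream curated start of 4 genes of differing class are shown to let this be seen, read from RefSeq GRCm38.p6 on the gene's strand with every CpG in capitals. Foxk2 (chr11:121259737-121259986, plus strand) was open in all 4 libraries, and Foxd3 (chr4:99656049-99656298, plus strand) was bivalent in all 4. Foxf1 (chr8:121084136-121084385, plus strand) was bivalent in both Glis3KO libraries and open in both WT libraries. Foxi2 (chr7:135410117-135410366, plus strand) was Polycomb only in both Glis3KO libraries and unmarked in both WT libraries. The 4 stretches held 48 CpG in Foxk2, 21 in Foxd3, 29 in Foxf1 and 3 in Foxi2. The same stretch of Foxo1, also open in all 4 libraries, held 20 and is not printed.
Foxk2: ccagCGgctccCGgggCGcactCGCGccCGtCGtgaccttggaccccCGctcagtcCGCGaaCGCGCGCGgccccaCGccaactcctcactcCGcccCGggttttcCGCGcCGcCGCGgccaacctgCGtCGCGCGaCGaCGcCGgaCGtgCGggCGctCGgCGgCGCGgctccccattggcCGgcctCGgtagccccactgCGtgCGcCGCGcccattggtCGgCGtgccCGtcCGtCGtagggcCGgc
Foxd3: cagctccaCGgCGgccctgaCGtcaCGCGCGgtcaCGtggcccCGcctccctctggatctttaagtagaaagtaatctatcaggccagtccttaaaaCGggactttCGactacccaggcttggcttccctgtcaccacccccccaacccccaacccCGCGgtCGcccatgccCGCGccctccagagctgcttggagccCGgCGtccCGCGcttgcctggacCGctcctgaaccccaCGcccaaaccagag
Foxf1: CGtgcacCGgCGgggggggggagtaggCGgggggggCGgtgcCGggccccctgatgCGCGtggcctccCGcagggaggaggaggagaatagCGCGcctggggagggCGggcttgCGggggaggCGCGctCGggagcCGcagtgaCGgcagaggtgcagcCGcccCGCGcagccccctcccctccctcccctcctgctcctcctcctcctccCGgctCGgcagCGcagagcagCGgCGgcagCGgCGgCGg
Foxi2: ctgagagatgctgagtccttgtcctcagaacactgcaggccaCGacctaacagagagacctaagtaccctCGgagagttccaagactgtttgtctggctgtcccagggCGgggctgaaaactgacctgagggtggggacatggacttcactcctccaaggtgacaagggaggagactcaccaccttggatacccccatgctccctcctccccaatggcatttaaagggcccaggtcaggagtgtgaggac

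H3K4me3 lay at 29 forkhead genes in Glis3KO-LID and 34 in Glis3KO-ND, against 33 in WT-LID and 32 in WT-ND, which is 67.4, 79.1, 76.7 and 74.4% of them. Among all genes the mark was called at 60.1, 62.5, 63 and 62.2% in the same order. H3K27me3 lay at 27 forkhead genes in Glis3KO-LID and 23 in Glis3KO-ND, against 19 in WT-LID and 15 in WT-ND, which is 62.8, 53.5, 44.2 and 34.9% of them. Among all genes H3K27me3 was called at 17.5, 8.68, 6.5 and 6.44% in that order. Both shares lay above those of all genes in each library, by more for H3K27me3 than for H3K4me3. H3K4me3 was called in all 4 libraries at 27 forkhead genes (56.6% of all genes) and in any of them at 34 (66%). H3K27me3 was called in all 4 at 14 forkhead genes (4.18%) and in any of them at 27 (17.7%).

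Taken by class, bivalent genes were the most frequent forkhead class in both Glis3KO libraries and in WT-LID. They numbered 18 in Glis3KO-LID and 20 in Glis3KO-ND, against 17 in WT-LID and 13 in WT-ND, where 10.7, 6.56, 5.21 and 5.02% of all genes were bivalent. Open forkhead genes numbered 11, 14, 16 and 19 in the same order, where 49.4, 55.9, 57.8 and 57.2% of all genes were open. Polycomb only genes numbered 9 in Glis3KO-LID and 3 in Glis3KO-ND, against 2 in each WT library, where 6.77, 2.12, 1.29 and 1.42% of all genes had that class. Unmarked genes numbered 5, 6, 8 and 9, where 33.2, 35.4, 35.7 and 36.4% of all genes were unmarked.

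**Figure D1:**
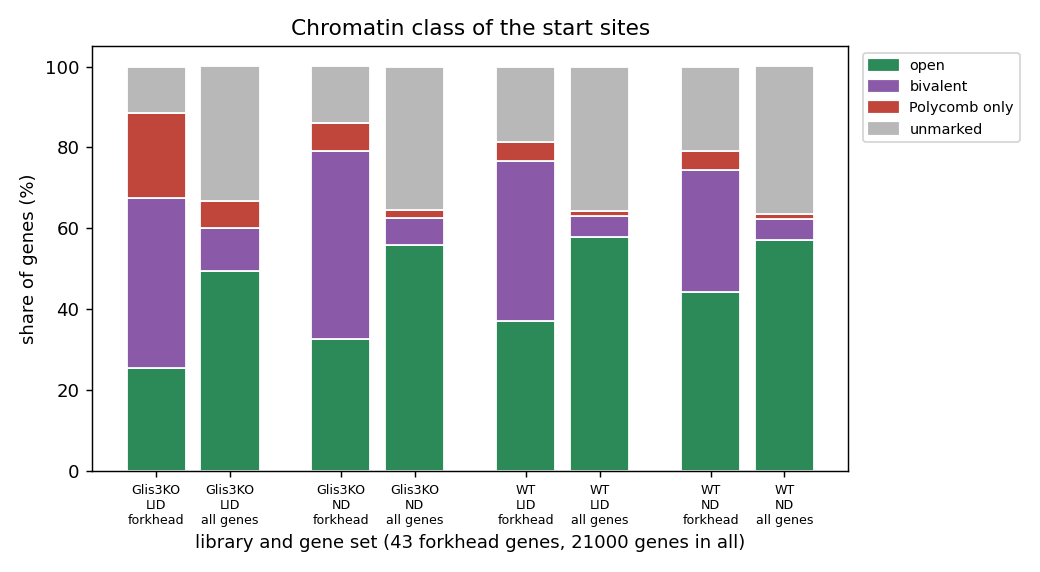
Stacked bars give the share of genes (%) in each chromatin class, for the 43 forkhead genes and for all 21000 genes in each library. The bivalent share is 41.9% of forkhead genes in Glis3KO-LID and 46.5% in Glis3KO-ND, against 39.5% in WT-LID and 30.2% in WT-ND, and 10.7% or less of all genes in each library.

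Across the 4 libraries 26 forkhead genes kept 1 class and 17 did not (39.5%, with 19.9% of all genes differing between libraries). Of the constant genes, 11 were open (47.6% of all genes were), 9 bivalent (2.38%), 1 Polycomb only (0.29%) and 5 unmarked (29.8%). Classes followed the subfamily letter in part. Both FoxK genes, 3 of 4 FoxO genes and 2 of 4 FoxP genes were open in all 4 libraries, and all 4 FoxD genes were bivalent in all 4. Other families of developmental TFs also had bivalent members in all 4 libraries, at 6 of 19 Sox, 2 of 13 Tbx, 3 of 8 Lhx, 3 of 9 Pax and 4 of 14 Nkx genes, against 9 of 43 forkhead genes. Foxe1 itself was open in Glis3KO-LID, WT-LID and WT-ND and bivalent in Glis3KO-ND, with H3K4me3 across all 2001 bp in every library.

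**Figure D2:**
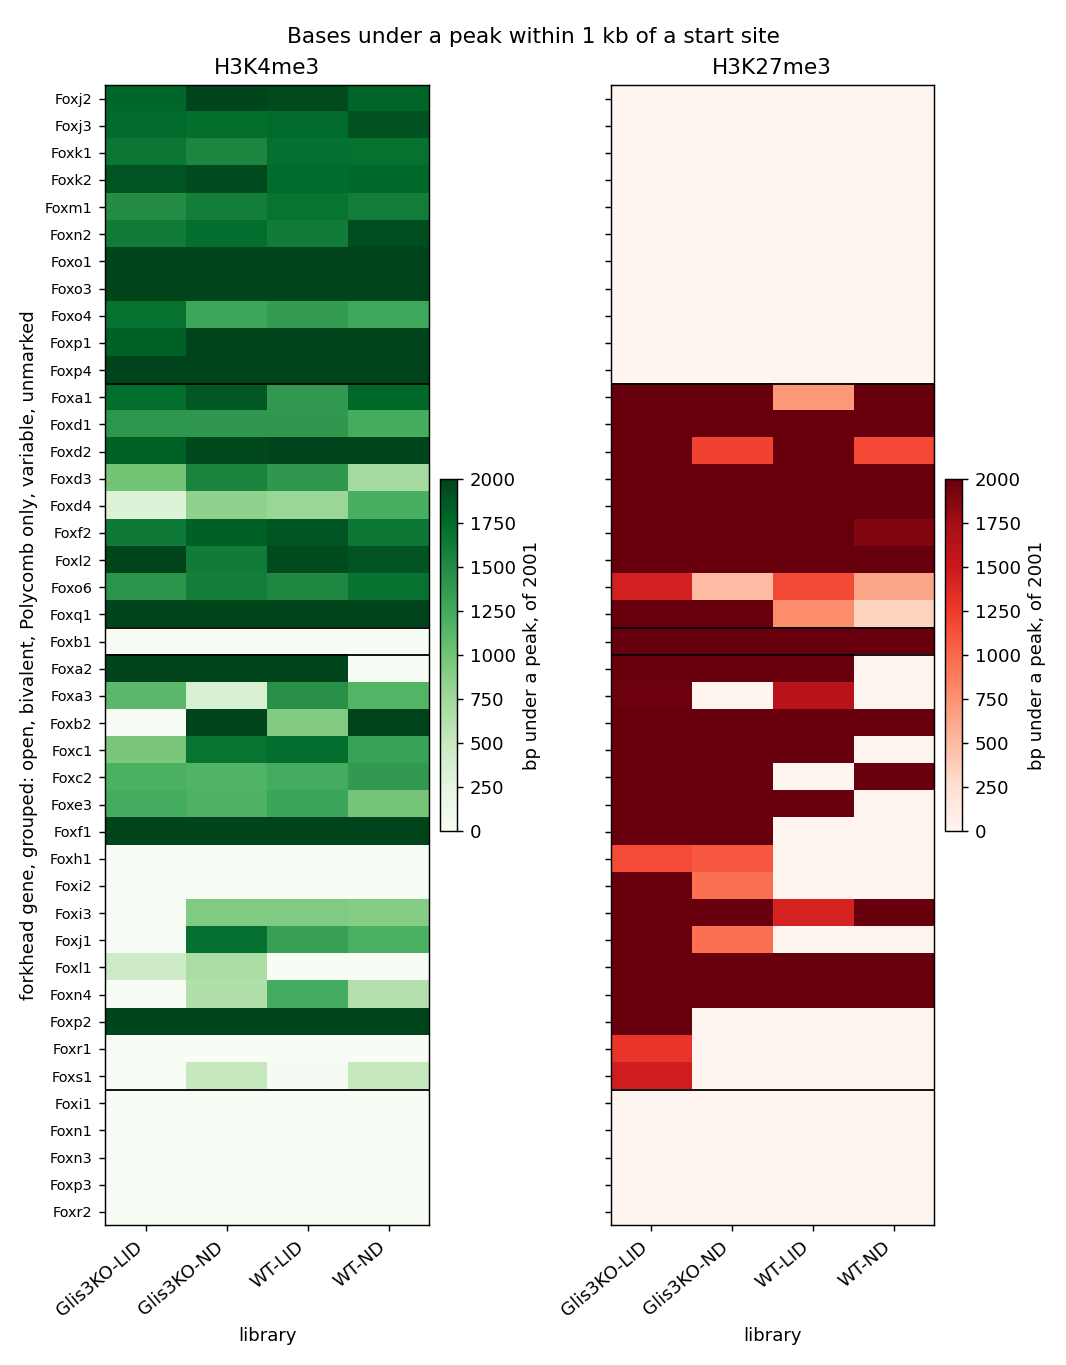
Each row is a forkhead gene and each column a library, and the shade gives the bases (of 2001 bp, highest over the gene's curated start sites) under an H3K4me3 peak (left) or an H3K27me3 peak (right). Lines separate genes that were open, bivalent or Polycomb only in all 4 libraries, variable between libraries, and unmarked in all 4, and 1 gene is not drawn.

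The genes open in all 4 libraries were Foxj2, Foxj3, Foxk1, Foxk2, Foxm1, Foxn2, Foxo1, Foxo3, Foxo4, Foxp1 and Foxp4. Foxo1 and Foxo3, whose proteins act downstream of insulin signalling and are held in the cytoplasm by AKT, had H3K4me3 over all 2001 bp in each library, as did Foxp4. Foxk1, a FOXK protein that acts in metabolism and autophagy, had 1661 bp in Glis3KO-LID, 1541 bp in Glis3KO-ND, 1709 bp in WT-LID and 1698 bp in WT-ND. Foxm1, which drives genes of cell division, had 1491, 1610, 1682 and 1612 bp in the same order. Its start site lies 83 bp from that of Rhno1 on the opposite strand, so the peak cannot be assigned to either gene. Over the 11 genes the median was 1789 bp in Glis3KO-LID, 1955 bp in Glis3KO-ND, 1752 bp in WT-LID and 1903 bp in WT-ND. Among all genes open in all 4 libraries the medians were 1381, 1536, 1586 and 1557 bp in that order, below the forkhead medians in each library.

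The 9 genes bivalent in all 4 libraries were Foxa1, Foxd1, Foxd2, Foxd3, Foxd4, Foxf2, Foxl2, Foxo6 and Foxq1. Several are known regulators of other lineages. Foxd3 acts in the neural crest, Foxd1 in the stroma of the kidney, Foxl2 in ovarian granulosa cells, Foxo6 in the brain and Foxq1 in the hair follicle. Foxa1, which opens chromatin in liver and other endoderm, had H3K4me3 over 1729 bp in Glis3KO-LID, 1881 bp in Glis3KO-ND, 1387 bp in WT-LID and 1772 bp in WT-ND, and H3K27me3 over 2001, 2001, 718 and 2001 bp. Its lowest H3K27me3 value was in WT-LID, where both marks shared 104 bp, against 1729 to 1881 bp in the other 3 libraries. Foxd3 had H3K4me3 over 1000, 1561, 1399 and 717 bp and H3K27me3 over all 2001 bp in every library. Foxq1 had H3K4me3 over all 2001 bp in every library, and H3K27me3 over 2001 bp in Glis3KO-LID, 2001 bp in Glis3KO-ND, 778 bp in WT-LID and 341 bp in WT-ND. Foxo6 had H3K27me3 over 1443, 494, 1170 and 633 bp, so that in both genotypes the LID library had the higher value. All 9 genes had both marks on at least 1 shared base pair of the window in every library.

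Foxb1, which acts in the hypothalamus and other parts of the developing brain, was the forkhead gene with H3K27me3 alone in all 4 libraries, over all 2001 bp each time. The H3K27me3 peak at its start was 19174 bp wide in Glis3KO-LID, 19708 bp in Glis3KO-ND, 13677 bp in WT-LID and 8563 bp in WT-ND. The nearest H3K4me3 peak lay 1376 bp from the start in WT-LID and 227712 to 228273 bp away in the other 3 libraries.

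H3K27me3 peaks at forkhead genes were wide. Where a start site was marked, the widest peak had a median of 14183 bp in Glis3KO-LID (27 genes), 10363 bp in Glis3KO-ND (23 genes), 6648 bp in WT-LID (19 genes) and 6522 bp in WT-ND (15 genes). Over all marked genes the medians were 4008, 3048, 2426 and 2261 bp in that order. These sets differ between libraries, so the 9 genes bivalent throughout were also compared. Their median was 19702 bp in Glis3KO-LID, 10363 bp in Glis3KO-ND, 6643 bp in WT-LID and 6522 bp in WT-ND, and over the 500 genes bivalent throughout it was 8748, 4305.5, 3131 and 2922 bp. Width and number of peaks both depend on depth and on the caller, whose settings were the same for the 4 lists per the study's methods.

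Among the single genes, Foxf2, a mesenchymal regulator, had an H3K27me3 peak of 21132 bp in Glis3KO-LID and 19025 bp in Glis3KO-ND, against 5864 bp in WT-LID and 6522 bp in WT-ND. Foxl2 had 24560 and 15875 bp in Glis3KO-LID and Glis3KO-ND, against 6648 and 12529 bp in WT-LID and WT-ND. For both genes each Glis3KO value lay above each WT value. Foxd1 did not follow this order, with 14183 and 10363 bp in Glis3KO-LID and Glis3KO-ND against 17269 and 3188 bp in WT-LID and WT-ND.

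**Figure D3:**
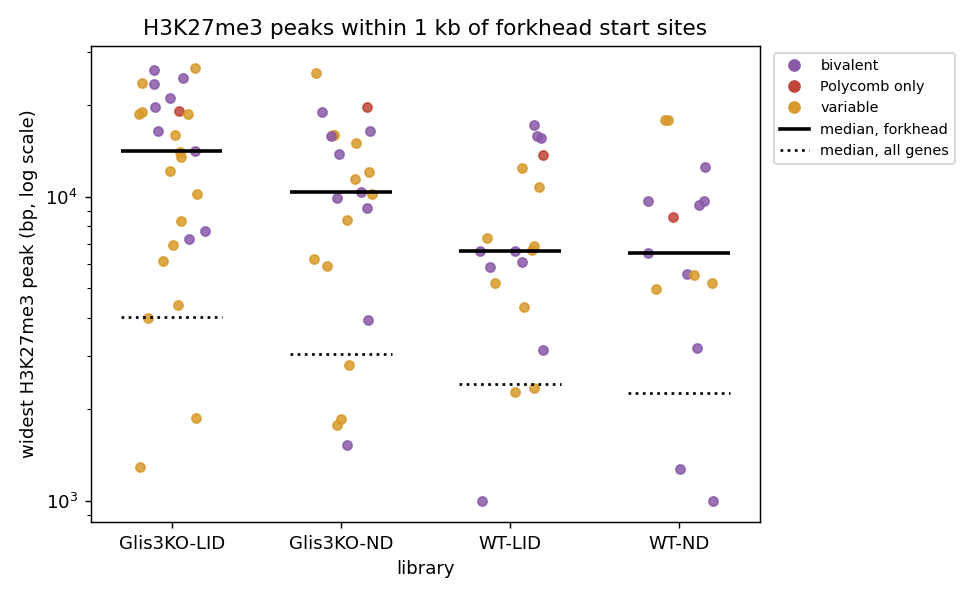
Points give the width (bp, log scale) of the widest H3K27me3 peak within 1 kb of a forkhead start site, for genes bivalent, Polycomb only or variable over the 4 libraries, with solid lines at the forkhead medians and dotted lines at the medians of all marked genes. The forkhead median is 14183 bp in Glis3KO-LID, 10363 bp in Glis3KO-ND, 6648 bp in WT-LID and 6522 bp in WT-ND, above the dotted line in each library.

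Glis3KO was compared with WT on each diet to see which forkhead promoters differed with loss of GLIS3. On the ND, 8 genes had H3K27me3 in Glis3KO-ND and not in WT-ND (among them Foxa2, Foxc1, Foxe3, Foxf1, Foxh1, Foxi2 and Foxj1), where 3.3% of all genes did, and none had it in WT-ND and not in Glis3KO-ND (1.07% of all genes). On the LID, 8 genes had H3K27me3 in Glis3KO-LID and not in WT-LID (Foxc2, Foxf1, Foxh1, Foxi2, Foxj1, Foxp2, Foxr1 and Foxs1), where 11% of all genes did, and none had the opposite (0.0571%). The LID share of 18.6% was nearer to its background than the ND share of 18.6% was. Foxf1, Foxh1, Foxi2 and Foxj1 were on both lists. With each H3K27me3 list cut to its widest 2631 peaks, 4 of the 8 LID genes were left (2.84% of all genes under that cut) and all 8 ND genes (2.64%). The cut keeps peaks by width and so favours forkhead genes, whose H3K27me3 peaks had wider medians than those of all marked genes. In Glis3KO-LID, marker genes of other cell types had H3K27me3 as well, with 4 of 5 C cell, 4 of 6 fibroblast, 3 of 6 endothelial and 4 of 5 skeletal muscle markers, against 1, 2, 0 and 2 in WT-LID. So did 4 of 13 thyroid markers (Slc5a5, Slc26a4, Duox2 and Duoxa2), against 0 in WT-LID. In Glis3KO-ND 1 thyroid marker did (Foxe1), and in WT-ND 2 did (Duox2 and Duoxa2). The remaining lists gave 1 of 6 immune, 1 of 4 adipocyte, 2 of 3 parathyroid and 1 of 3 thymus epithelium markers in Glis3KO-LID. Each of these lists gave 0 in WT-LID. On the ND, C cell, fibroblast, endothelial and skeletal muscle markers gave 3, 2, 0 and 2 in Glis3KO-ND, against 2, 1, 0 and 2 in WT-ND. Parathyroid markers gave 2 in Glis3KO-ND and 0 in WT-ND, and immune, adipocyte and thymus epithelium markers gave 0 in both. The part of these cell types in the forkhead calls was not tested.

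Foxf1, which acts in mesenchyme around foregut-derived organs, had H3K4me3 over all 2001 bp in each library. H3K27me3 covered 2001 bp in Glis3KO-LID and 2001 bp in Glis3KO-ND, against 0 bp in WT-LID and 0 bp in WT-ND. The peaks were 26599 bp wide in Glis3KO-LID and 25460 bp in Glis3KO-ND, the widest of any forkhead gene in each of those libraries. In WT the nearest H3K27me3 peak lay 40529 bp from the Foxf1 start in WT-LID, at Foxl1, and 29296 bp away in WT-ND, at Foxc2 and Foxl1. These 3 genes lie close together on chromosome 8, with Foxf1 starting at 121084386, Foxc2 at 121116171 and Foxl1 at 121127685. The start of Mthfsd, on the opposite strand, lies between those of Foxf1 and Foxc2, 23951 and 7834 bp from them.

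Foxc2 and Foxl1 shared a single H3K27me3 peak in 3 libraries, of 18662 bp in Glis3KO-LID, 15909 bp in Glis3KO-ND and 17855 bp in WT-ND. In WT-LID the peak was 5219 bp wide and reached Foxl1 alone, 8744 bp from the Foxc2 start. Foxc2, which is needed for lymphatic vessels and valves, therefore counted as open in WT-LID and bivalent in the other 3 libraries, with H3K4me3 over 1194, 1167, 1232 and 1376 bp in the order Glis3KO-LID, Glis3KO-ND, WT-LID and WT-ND. Foxl1, a gene of gut mesenchyme, had H3K4me3 over 444 bp in Glis3KO-LID and 681 bp in Glis3KO-ND, against 0 bp in both WT libraries. Foxd2 and Foxe3 form another close pair, 17169 bp apart on chromosome 4, but shared no peak.

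Foxj1, the regulator of motile cilia, had H3K27me3 over 2001 bp in Glis3KO-LID and 957 bp in Glis3KO-ND, against 0 bp in both WT libraries. Its H3K4me3 covered 0 bp in Glis3KO-LID and 1714 bp in Glis3KO-ND, against 1335 bp in WT-LID and 1200 bp in WT-ND. Foxj1 thus differed in class between every pair of libraries except the WT pair. Foxh1, a SMAD partner in Nodal signalling, had H3K27me3 over 1161 bp in Glis3KO-LID and 1100 bp in Glis3KO-ND, against 0 bp in both WT libraries, and no H3K4me3 at its curated start in any library. A H3K4me3 peak lay 1005 to 1490 bp from the Foxh1 start in each library, towards the start of Ppp1r16a on the opposite strand, 1695 bp from that of Foxh1. A predicted Foxh1 start 1666 bp from the curated one carried H3K4me3 over 1311 bp in Glis3KO-LID, 1257 bp in Glis3KO-ND, 1177 bp in WT-LID and 1662 bp in WT-ND, so the peak cannot be assigned to either gene. Foxi2 had H3K27me3 over 2001 bp in Glis3KO-LID and 961 bp in Glis3KO-ND, against 0 bp in both WT libraries.

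The remaining genes of the LID list had H3K27me3 in Glis3KO-LID alone. Foxp2, known for its part in vocal and motor circuits, had H3K27me3 over 2001 bp there, under a peak of 4396 bp, and H3K4me3 over at least 1987 bp in each library. Foxr1 had H3K27me3 over 1288 bp and no H3K4me3 in any library. Foxs1, found in neural crest derivatives and pericytes, had H3K27me3 over 1460 bp and H3K4me3 over 0 bp in Glis3KO-LID and 501 bp in Glis3KO-ND, against 21 bp in WT-LID and 501 bp in WT-ND. The WT-LID peak touched the edge of the window. The list of 18040 H3K27me3 peaks in Glis3KO-LID gave 7.33% of all genes the mark in that library alone.

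H3K4me3 was lacking in Glis3KO-LID at 5 forkhead genes that had it in WT-LID and in the other 2 libraries. These were Foxb2, Foxi3, Foxj1, Foxn4 and Foxs1, and 4.33% of all genes had the mark in WT-LID and not in Glis3KO-LID. The same 5 had it in Glis3KO-ND and not in Glis3KO-LID (4.06% of all genes), and no forkhead gene had the opposite (1.63%). They were 5 of 32 with the mark in the other 3 libraries (15.6%, against 4.19% of all such genes). All 5 were Polycomb only in Glis3KO-LID, the library with the shortest H3K4me3 list. Of these 32 genes, 21 had H3K27me3 in Glis3KO-LID, and 5 of the 21 lacked H3K4me3 there (9.94% of all genes with the same calls). The other 11 had no H3K27me3 there, and 0 of the 11 lacked H3K4me3 (3.04%). Of 6 fibroblast markers, 1 had H3K4me3 in Glis3KO-LID and 3 in Glis3KO-ND, against 4 in WT-LID and 2 in WT-ND. Other marker lists did not all have their lowest count in Glis3KO-LID. In the same order, endothelial markers numbered 5, 3, 6 and 4 of 6, and C cell markers 3, 4, 4 and 4 of 5. Adipocyte markers numbered 2, 1, 2 and 2 of 4, parathyroid markers 1, 1, 1 and 0 of 3, and thymus epithelium markers 1, 0, 1 and 0 of 3. Their part in the forkhead calls was not tested. Foxn4, which acts in the retina and spinal cord, had H3K4me3 over 0 bp in Glis3KO-LID and 644 bp in Glis3KO-ND, against 1240 bp in WT-LID and 629 bp in WT-ND, with H3K27me3 over 2001 bp in each. Foxi3, a gene of the ectoderm, had 0 and 927 bp of H3K4me3 in Glis3KO-LID and Glis3KO-ND, against 926 and 900 bp in WT-LID and WT-ND. Foxb2 had 0 and 2001 bp in Glis3KO-LID and Glis3KO-ND, against 919 and 2001 bp in WT-LID and WT-ND. Foxs1 counted among the 5 on H3K4me3 peaks of 501 bp, the smallest width in these lists, with 21 bp in the WT-LID window. In the opposite direction, Foxl1 alone had H3K4me3 in Glis3KO-LID and not in WT-LID (1.41% of all genes), and Foxa2 and Foxl1 had it in Glis3KO-ND and not in WT-ND (2.39%).

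LID was compared with ND within each genotype. Class differed at 6 forkhead genes between WT-LID and WT-ND (7.77% of all genes) and at 8 between Glis3KO-LID and Glis3KO-ND (13.8%). Between genotypes it differed at 12 on the LID (15.5%) and at 9 on the ND (8.25%). In Glis3KO, H3K27me3 lay at Foxa3, Foxp2, Foxr1 and Foxs1 in Glis3KO-LID and not in Glis3KO-ND (8.93% of all genes), and no gene had the opposite (0.152%). H3K4me3 lay at Foxa2 in WT-LID and not in WT-ND (2.54%), and no gene had the opposite (1.79%). In WT, 5 genes, among them Foxa2, Foxa3, Foxc1 and Foxe3, had H3K27me3 in WT-LID and not in WT-ND (2.07% of all genes), and Foxc2 had the opposite (2.01%). The forkhead gains in Glis3KO-ND over WT-ND and in WT-LID over WT-ND share the WT-ND library. Foxa2, Foxc1 and Foxe3 were in both, so they are also describable as lacking the mark in WT-ND alone. Foxc1, which acts in mesenchyme and the eye, had H3K27me3 over 2001 bp in Glis3KO-LID, Glis3KO-ND and WT-LID and 0 bp in WT-ND, where the nearest peak was 7086 bp away. Foxe3, a lens gene, gave the same 4 values, with the nearest WT-ND peak 6219 bp from its start.

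Foxa2, an endoderm regulator related to Foxa1, had both marks over 2001 bp in Glis3KO-LID, Glis3KO-ND and WT-LID and neither in WT-ND. In WT-ND the nearest H3K4me3 peak lay 1570 bp from a start and the nearest H3K27me3 peak 616043 bp away. Foxa3, a liver gene of the same subfamily, had H3K27me3 in both LID libraries (1977 bp in Glis3KO-LID and 1625 bp in WT-LID) and in neither ND library. Its H3K4me3 covered 1124 bp in Glis3KO-LID, 355 bp in Glis3KO-ND, 1463 bp in WT-LID and 1155 bp in WT-ND. The Foxa3 start lies 838 bp from that of Sympk on the opposite strand, so its H3K4me3 may belong to either gene.

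Foxi1, Foxn1, Foxn3, Foxp3 and Foxr2 had neither mark in any library. Foxn1 is required for thymus epithelium, Foxp3 for regulatory T cells and Foxi1 for ionocytes. The marker lists showed no immune H3K4me3 in any library, and of 3 thymus epithelium markers (Foxn1, Psmb11 and Aire) Aire had H3K4me3 in Glis3KO-LID and in WT-LID. Foxn3, a repressor with a part in the DNA damage checkpoint, counted as unmarked at its single curated start, but predicted starts of the gene carried H3K4me3. At a predicted start 57085 bp from the curated one it covered 1798 bp in Glis3KO-LID, 1862 bp in Glis3KO-ND, 2001 bp in WT-LID and 1771 bp in WT-ND, with no H3K27me3. The predicted starts of Foxn1 and Foxr2 carried neither mark, and Foxi1 and Foxp3 have none.

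The constant classes were ordered by their median CpG content, with ranges that overlapped. The ratio of observed to expected CpG in the 300 bases around the most upstream curated start (250 before and 50 from it) had a median of 0.94 in the 11 open genes (0.50 to 1.28), 0.77 in the 9 bivalent genes (0.62 to 0.97) and 0.27 in the 5 unmarked genes (0.15 to 0.50). Over all genes it was 0.80 in open, 0.74 in bivalent and 0.17 in unmarked genes, so the order was the same. The value was 0.63 in Foxb1. Foxk2 had the highest ratio (1.28), and Foxh1 and Foxr2 the lowest (0.15). Variable genes spanned 0.15 to 1.03, with Foxh1 (0.15), Foxi2 (0.20) and Foxs1 (0.28) at the low end and Foxp2 (1.03), Foxc1 (0.94) and Foxj1 (0.91) at the high end. The open and unmarked ranges met at 0.50, which Foxp1 and Foxp3 both had. The bivalent range lay wholly inside the open range.

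**Figure D4:**
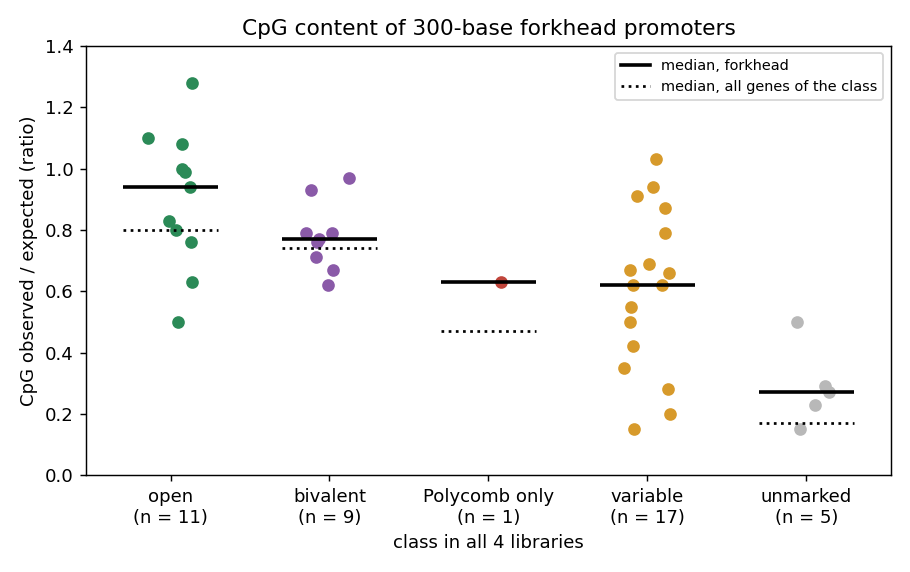
Points give the observed over expected CpG ratio of the 300-base promoter of each forkhead gene by its class in all 4 libraries, with solid lines at the forkhead medians and dotted lines at the medians of all genes of the class. The median is 0.94 in open genes, 0.77 in bivalent genes and 0.27 in unmarked genes, and the bivalent range lies inside the open range.

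NKX2.1 and PAX8 peaks were then placed around the same start sites, to see which forkhead genes lie near binding of the thyroid TFs. NKX2.1 peaks lay within 5 kb of 11 genes (25.6%, against 35.4% of all genes), which were Foxa3, Foxc2, Foxh1, Foxj1, Foxj3, Foxk1, Foxn2, Foxo4, Foxp1, Foxp2 and Foxp4. PAX8 peaks lay within 5 kb of 15 genes (34.9%, against 42%), which were Foxa1, Foxb2, Foxd1, Foxd2, Foxd4, Foxh1, Foxj1, Foxj3, Foxk1, Foxl1, Foxn1, Foxo3, Foxp1, Foxp2 and Foxp4. Both factors had a peak at 7 genes (25.2% of all genes), namely Foxh1, Foxj1, Foxj3, Foxk1, Foxp1, Foxp2 and Foxp4, and the peaks overlapped at 5 of them (16.8%). Within 50 kb NKX2.1 peaks were found at 38 genes (75.4%) and PAX8 peaks at 39 (77.4%), in windows that reach neighbouring genes. No peak of either factor lay within 50 kb of 2 genes, Foxb1 among them (18.4% of all genes), and 36 genes had both (71.2%), overlapping at 25 (58.5%). In a window of 1 kb NKX2.1 peaks lay at 8 genes (21.1%) and PAX8 peaks at 8 (29.3%). Both lay at Foxp1, Foxp2 and Foxp4 (12.1%), overlapping at Foxp1 and Foxp4 (8.26%), and neither at 30 genes (61.7%). In a window of 20 kb NKX2.1 peaks lay at 25 genes (59%), PAX8 peaks at 33 (62.9%) and both at 22 (51.2%), overlapping at 12 (37.2%). The forkhead share with an NKX2.1 peak was 18.6% at 1 kb and 58.1% at 20 kb, near the 21.1 and 59% of all genes. It was 25.6% at 5 kb, below 35.4%, and 88.4% at 50 kb, above 75.4%. For PAX8 the share was 18.6% at 1 kb and 34.9% at 5 kb, below 29.3 and 42%. It was 76.7% at 20 kb and 90.7% at 50 kb, above 62.9 and 77.4%.

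**Figure D5:**
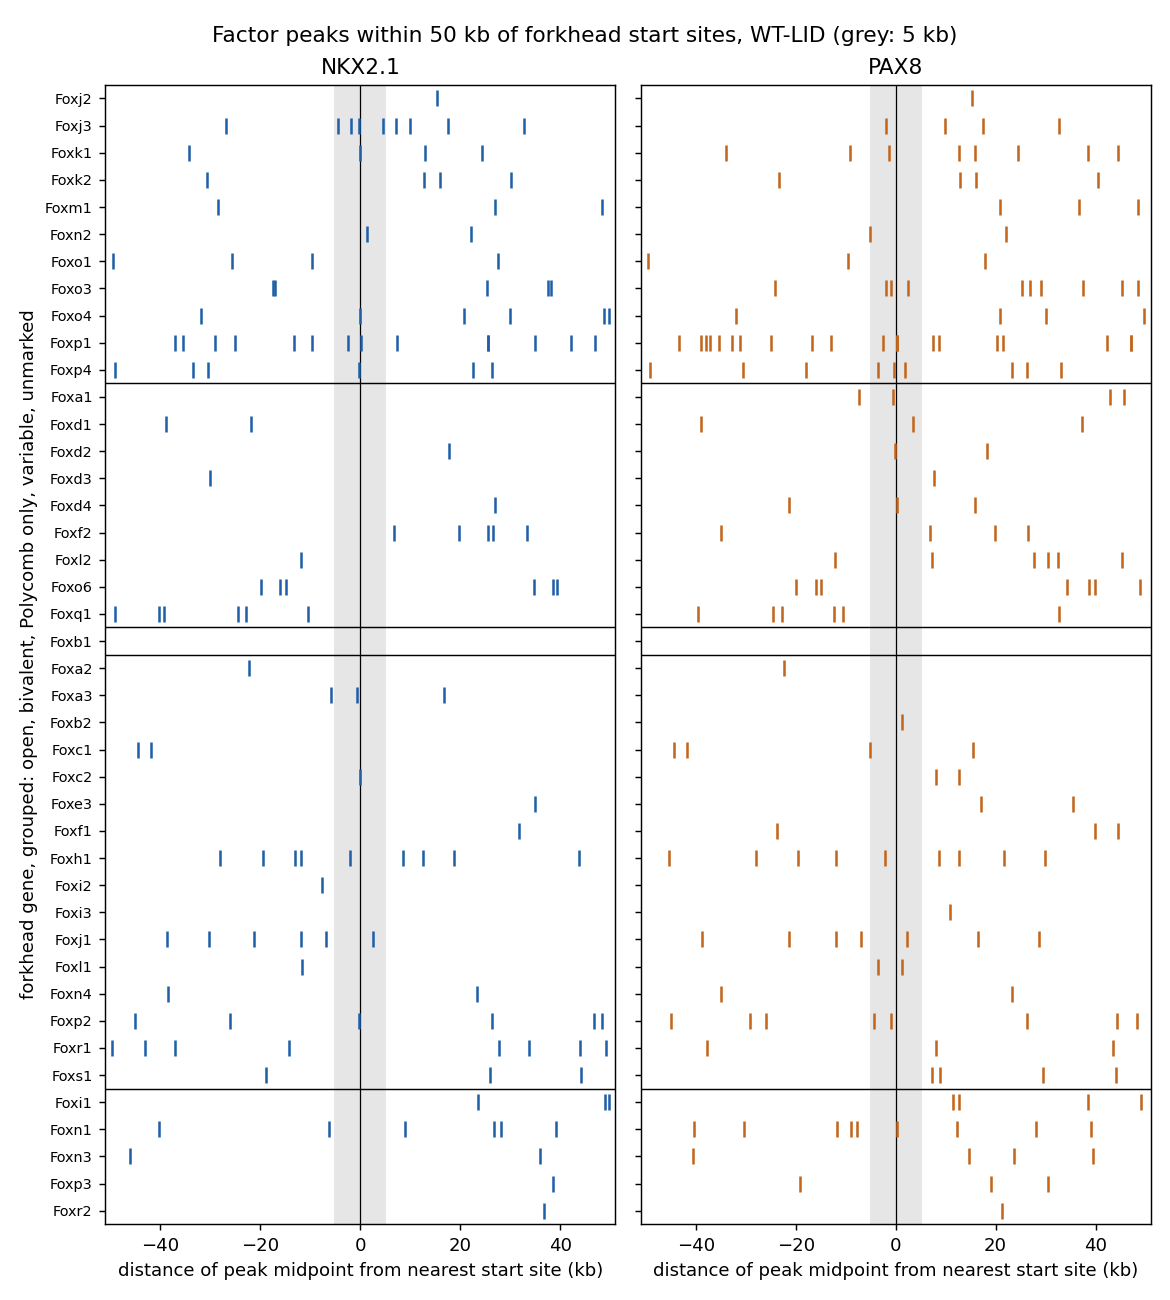
Ticks mark NKX2.1 peaks (left) and PAX8 peaks (right) of WT-LID by the distance (kb) of their midpoint from the nearest curated start of each forkhead gene, negative upstream, with 5 kb either side in grey. Genes are grouped and drawn as in the map of marks, and Foxp1 has the most peaks within 50 kb (14 of NKX2.1 and 20 of PAX8).

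Factor peaks lay near open genes more often than near bivalent genes, among forkhead genes as among all genes. For PAX8 the forkhead shares, 43.8% of open and 29.4% of bivalent genes, were closer together than those of all genes. Of 16 forkhead genes open in WT-LID, 9 had an NKX2.1 peak within 5 kb (50.1% of all open genes) and 7 a PAX8 peak (60.1%). Of 17 bivalent in WT-LID, 1 had an NKX2.1 peak (19.5% of all bivalent genes) and 5 a PAX8 peak (32.1%). All but 1 of the 11 genes with NKX2.1 near were thus not bivalent, Foxa3 being the exception. The midpoint of its peak lay at -589 bp from the Foxa3 start and 249 bp from the start of Sympk.

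Of the 23 PAX8 peaks within 5 kb, 6 (26.1%) lay in a WT-LID H3K27me3 peak, against 2.01% of PAX8 peaks within 5 kb of any gene. They were found at Foxa1, Foxb2, Foxd1, Foxd2, Foxd4 and Foxl1. For NKX2.1 this was 1 of 15 peaks, at Foxa3 (0.515% for any gene). H3K27me3 itself was called at 44.2% of forkhead genes and 6.5% of all genes in WT-LID, so the peak shares are not matched for it. Among genes bivalent in WT-LID, 29.4% of forkhead genes and 32.1% of all genes had a PAX8 peak within 5 kb. The PAX8 peak at Foxd2 lay 108 bp upstream of its start, and that at Foxd4 lay 203 bp downstream of its start, in an exon. Since the factor and histone mice may differ, presence on the same chromosomes at once was not shown.

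The TF peaks at open genes were placed in several ways. At Foxp1, a regulator in B cells, lung and heart, 2 NKX2.1 and 3 PAX8 peaks lay within 5 kb of its 4 curated starts. One overlapping pair had midpoints 2374 bp (NKX2.1) and 2475 bp (PAX8) upstream of a start, and another lay 223 and 232 bp downstream of a different start, in intron 1. At Foxp4, a lung and gut relative of Foxp1, an NKX2.1 peak lay 224 bp upstream and overlapped a PAX8 peak 428 bp upstream, with other PAX8 peaks 3453 bp upstream and in intron 1. Foxj3 had 4 NKX2.1 peaks, the most of any forkhead gene, with the pair at -1873 bp (NKX2.1) and -1937 bp (PAX8) nearer to the start of Frg2f1 (981 and 1045 bp). At Foxk1 an NKX2.1 peak lay 145 bp upstream and a PAX8 peak 1342 bp upstream, without overlap. Foxo3 had 3 PAX8 peaks and no NKX2.1 peak, and Foxo4, its X-linked relative, had 1 NKX2.1 peak 110 bp upstream and no PAX8 peak.

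The other genes with a peak within 5 kb had 1 or 2 per factor. NKX2.1 lay 114 bp upstream of Foxc2, which was open in WT-LID, and 1291 bp downstream of the Foxn2 start, in intron 1. Foxp2 had an NKX2.1 peak 323 bp upstream of a start within the gene, and PAX8 peaks 877 bp upstream of one start and 4414 bp upstream of another. At Foxj1 the NKX2.1 and PAX8 peaks lay 2509 and 2303 bp downstream, in intron 2. Those at Foxh1 lay upstream of it but 460 and 451 bp from the start of Ppp1r16a, the nearer gene. Foxn1, unmarked in all 4 libraries, had a PAX8 peak 165 bp downstream of a start, in intron 1, with neither mark at the peak. Among the genes with H3K27me3, PAX8 lay 548 bp upstream of Foxa1, 1320 bp downstream of the Foxb2 start, 3472 bp downstream of the Foxd1 start, and 3464 bp upstream and 1173 bp downstream of the Foxl1 start.

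The sequence that the overlapping NKX2.1 and PAX8 peaks share is shown for all 5 genes that have such a pair. Peaks of both TFs overlapped there within 5 kb of a forkhead start, which does not show joint binding. Of the 6 stretches, that in intron 1 of Foxp1 overlaps an annotated exon and is not printed. The 5 printed stretches lie outside annotated exons and are read from RefSeq GRCm38.p6 on the gene's strand, from chr15:76671954-76672244 (minus) for Foxh1, chr4:119537639-119537874 (plus) for Foxj3, chr6:99523319-99523517 (minus) for Foxp1, chr17:47924911-47925006 (minus) for Foxp4 and chr11:116332902-116332995 (minus, intron 2) for Foxj1. Capitals mark the NKX2 core CAAGTG on either strand.
Foxh1: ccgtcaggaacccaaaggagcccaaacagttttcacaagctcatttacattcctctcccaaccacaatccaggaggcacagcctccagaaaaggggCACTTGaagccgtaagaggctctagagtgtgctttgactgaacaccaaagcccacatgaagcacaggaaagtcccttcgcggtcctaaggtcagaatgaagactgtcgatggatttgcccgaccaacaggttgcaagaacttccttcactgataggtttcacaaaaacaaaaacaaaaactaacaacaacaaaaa
Foxj3: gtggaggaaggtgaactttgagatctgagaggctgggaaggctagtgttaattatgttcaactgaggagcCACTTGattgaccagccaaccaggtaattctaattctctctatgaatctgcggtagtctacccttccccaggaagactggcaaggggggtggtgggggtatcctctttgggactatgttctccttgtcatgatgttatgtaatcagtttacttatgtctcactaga
Foxp1: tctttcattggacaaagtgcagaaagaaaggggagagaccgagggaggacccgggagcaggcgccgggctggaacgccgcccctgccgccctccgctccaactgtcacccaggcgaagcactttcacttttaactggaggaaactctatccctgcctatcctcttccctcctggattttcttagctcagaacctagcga
Foxp4: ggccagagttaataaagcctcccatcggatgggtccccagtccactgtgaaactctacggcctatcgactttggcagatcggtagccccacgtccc
Foxj1: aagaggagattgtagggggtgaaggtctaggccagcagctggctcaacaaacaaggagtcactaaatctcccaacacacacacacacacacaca

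The NKX2 core was present in 3 of the 6 stretches, those of Foxh1 and Foxj3 and the unprinted one of Foxp1, and absent from the other Foxp1 stretch, Foxp4 and Foxj1. Over the 15 NKX2.1 peaks within 5 kb of a forkhead start, 5 held it, against 26.6% of the 8734 NKX2.1 peaks within 5 kb of any gene. It was in 8 of 23 PAX8 peaks (19.8% of 10926). A PAX paired domain core of 10 letters was in none of the 23 PAX8 peaks (3.47%) or the 15 NKX2.1 peaks (1.36%), and the forkhead core TGTTTAC was in none of either (3.25% of PAX8 peaks and 3.4% of NKX2.1 peaks). All motifs were searched on both strands and do not overlap each other. In the 300-base promoters the NKX2 core was found in 5 of 43 forkhead genes (13.1% of all promoters), in Foxd4, Foxi1, Foxo1, Foxo4 and Foxp2. The forkhead core was found in Foxa1 alone (2.87% of all promoters) and the PAX core in none (0.91%). A match of letters is a description of the sequence, not a bound site.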

How the data were processed

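ChIP-seq peak lists of mouse thyroid were used, 8 of histone marks and 2 of NKX2.1 and PAX8. The authors filtered reads on quality, cut adapters (Cutadapt 1.12) and mapped to mm10, accepting single hits (Bowtie 1.2). Picard 1.110 took out duplicate reads, and peaks are HOMER 4.10.3 calls. The submitters' processing notes also name bedtools 2.24.0. Factor peaks were called against input and resized to 300 bp. The lists used here held 46636 NKX2.1 and 51586 PAX8 peaks, more than the study reports for either factor. The sources used here do not say why, so the factor counts above may differ from those of the study's own peak sets. The sources used here do not say whether histone peaks were called against input. The deposited lists give positions (other values, no score or count), so depth and counting error are unknown. The combined lists and the rat PCCl3 lists were not used.

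Positions were counted from 1 and set against RefSeq GRCm38.p6 (mm10), with 26242 curated start sites of 21000 protein-coding genes, in Python 3.11.15 (matplotlib 3.10.9). A peak counted with at least 1 bp in the window. The coverage code was tested on 500 simulated windows, with 0 wrong. With 1 library a group and lists without values no test was made, so counts stand beside those of all genes. Groups came from the sample titles. The members and lists were chosen with earlier results of these data known. Of the 43 genes, 1 is counted but not reported here by name. The others are named by class, and those that are variable or have a factor peak within 5 kb with values where they carry a result. Other windows, coverage minimums, start sites, transcripts and list lengths were tried.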

Additional observations from a re-analysis of the deposited data

Results flagged for a closer look

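Some counts of forkhead genes differed in opposite directions between groups under the same contrast, and none of these differences was tested, since each group had 1 library. The number with H3K4me3 was 4 lower in Glis3KO-LID than in WT-LID (29 and 33, a difference of -4) and 2 higher in Glis3KO-ND than in WT-ND (34 and 32). By diet, the number with H3K4me3 was 29 in Glis3KO-LID and 34 in Glis3KO-ND (-5), whereas it was 33 in WT-LID and 32 in WT-ND (1). The number of bivalent genes was 18 in Glis3KO-LID and 20 in Glis3KO-ND (-2), and 17 in WT-LID and 13 in WT-ND (4). The first and second of these include the same 5 genes that lacked H3K4me3 in Glis3KO-LID, which was also the library with the longest H3K27me3 list. The H3K4me3 list of that library was the shortest, with 15692 peaks.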

How the results depend on the processing

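Of 57 alternatives over 9 counts, 48 stayed within 1.5 times the reported count. The NKX2.1 count of 11 genes became 25 at 20 kb and 38 at 50 kb. The PAX8 count of 15 became 8 at 1 kb, 33 at 20 kb and 39 at 50 kb, and the count with both factors, 7, became 3 at 1 kb, 22 at 20 kb and 36 at 50 kb. Wider windows take in more peaks by construction. With each H3K27me3 list cut to its widest 2631 peaks, the count with H3K27me3 in Glis3KO-LID and not in WT-LID was 4 (2.84% of all genes), against 8 with all peaks (11%), and Foxh1, Foxp2, Foxr1 and Foxs1 were lost. The cut leaves fewer peaks in Glis3KO-LID and, being by width, favours the wide peaks of forkhead genes. Without the Glis3KO-LID libraries, an alternative chosen after seeing the data, 32 forkhead genes had H3K4me3 in all libraries counted (27 with them), 14 had H3K27me3 (14), 12 were bivalent (9) and 6 unmarked (5), where 59.1, 4.19, 2.76 and 32.9% of all genes did. With predicted transcripts Foxn3 was no longer unmarked and Foxh1 had H3K4me3 in all 4 libraries, and with at least 500 bp covered Foxd4, Foxo6 and Foxq1 were no longer bivalent in all libraries. With predicted transcripts or a window of 2 kb, Foxp4 had H3K27me3 in Glis3KO-LID. The nearest such peak lay 1216 bp from its curated start. Genotypes were compared within each diet and diets within each genotype. Each group had 1 library with no replicate number, so no paired test was made and no result comes from a test. Without replicates or depth, a call that differs between libraries cannot be told apart from a difference in sensitivity.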
